A study of Homo sapiens with 66 samples.

Results

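The transcription core of the integrated stress response (ISR) was followed as 10 genes: ATF4, DDIT3, ATF3, CEBPB, CEBPG, PPP1R15A, TRIB3, CHAC1, SESN2 and DDIT4. They were named as members of the pathway and looked up by Ensembl identifier in the gene count table, where all 10 of them were found among 20167 genes. RNA was sequenced from AMO1 cells (labelled AMO-1 WT), an established human multiple myeloma line, and from L363 myeloma cells resistant to carfilzomib (labelled CFZr L363, here L363-CFZr). Both lines were cultured with halofuginone (HFG), halofuginol, NCP22 or NCP26 at 1 µM for 6 h or 24 h, or with DMSO as the solvent control. AMO1 cells were also cultured with carfilzomib (CFZ), a proteasome inhibitor, at another, lower dose, which the study's text gives and the sample labels do not. The 22 groups, 12 of AMO1 and 10 of L363-CFZr, held 3 libraries each, 66 in all, all conditions in triplicate by the methods, which state biological triplicates for experiments in general. The labels do not tie replicates to separate cultures, and p-values measure the spread between these libraries. NCP26 and HFG inhibit prolyl-tRNA synthetase, NCP22 is the compound from which NCP26 was developed, and halofuginol is a reduced analogue of HFG. By the study's binding assay NCP22 and halofuginol also bind the human enzyme, each more weakly than the compound it is related to. The way the resistant L363 cells were derived is not given in the sources used here, and a difference between the lines cannot be told apart from a difference in drug resistance.

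The ISR starts when kinases that sense stress phosphorylate the initiation factor eIF2, which lowers the translation of most mRNAs but allows translation of ATF4. The kinase GCN2 responds to uncharged tRNA, such as accumulates when an aminoacyl-tRNA synthetase is inhibited, and PERK responds to misfolded protein in the endoplasmic reticulum, a compartment that antibody-secreting plasma cells load heavily. ATF4 then activates genes for amino acid supply together with other transcription factors, while prolonged signalling through DDIT3 is known for its link to cell death. Because ATF4 is regulated to a large extent by translation, its mRNA level is not its protein level.

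By GENCODE v44 on GRCh38, the transcription factor genes lie at chr22:39519695-39522683 on the plus strand (ATF4), chr12:57516588-57521737 on the minus strand (DDIT3), chr1:212565334-212620777 on the plus strand (ATF3), chr20:50190830-50192668 on the plus strand (CEBPB) and chr19:33373685-33382686 on the plus strand (CEBPG). PPP1R15A lies at chr19:48872212-48876059, TRIB3 at chr20:362835-397559, CHAC1 at chr15:40952962-40956512, SESN2 at chr1:28259518-28282491 and DDIT4 at chr10:72273919-72276036, all on the plus strand. kallisto divides reads among transcripts that share 31-mers, and such sharing was counted on both strands. Of the 31-mers of ATF4, 26.4% also occur in ATF4 pseudogenes, none of which is in the count table. DDIT3 shared 28.9% with MARS1, MBD6 and another gene at its locus, CEBPB shared 12.4% with its antisense RNA, CEBPD and CEBPE, and PPP1R15A shared 2.58%, while the other 6 genes shared none. The levels of ATF4, DDIT3 and CEBPB are therefore less certain than those of the other members.

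Upstream sequences are shown for the members in which a motif known for this pathway was found. The C/EBP-ATF composite motif TGATGNAA and the palindrome TGACGTCA bound by CREB and ATF proteins were searched on both strands of the 250 bases before each RefSeq transcription start (GRCh38.p14), and the motifs do not overlap each other here. All 10 members were matched, with 17 start sites. Windows of the same gene largely overlap for ATF4, DDIT3 and TRIB3, so the 17 are not independent and enrichment was not tested. TGATGNAA occurred in 3 of the 17 windows, those of ATF3, CEBPG and CHAC1, against 3.14% of the 35116 windows of all genes. TGACGTCA occurred in 1, that of PPP1R15A, against 1.65% of all windows. A match is a description of these letters and not a binding site. In the sequences the motif is in capitals, and the bases shown for ATF3 and CEBPG lie outside the exons annotated by GENCODE (those of CEBPG inside its gene body), whereas the motifs of CHAC1 and PPP1R15A lie inside an annotated exon and are shown with 10 bases on either side. All are written from 5′ to 3′ on the plus strand.
ATF3, chr1:212565157-212565333: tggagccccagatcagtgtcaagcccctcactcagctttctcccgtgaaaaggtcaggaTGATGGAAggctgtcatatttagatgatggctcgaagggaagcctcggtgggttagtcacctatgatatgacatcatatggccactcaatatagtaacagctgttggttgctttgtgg
CEBPG, chr19:33373896-33374112: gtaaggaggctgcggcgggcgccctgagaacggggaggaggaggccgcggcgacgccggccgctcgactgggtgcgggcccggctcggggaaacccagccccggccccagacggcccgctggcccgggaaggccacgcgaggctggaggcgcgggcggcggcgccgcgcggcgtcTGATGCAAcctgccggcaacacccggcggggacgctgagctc
CHAC1, chr15:40953252-40953279: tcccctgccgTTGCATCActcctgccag
PPP1R15A, chr19:48872353-48872380: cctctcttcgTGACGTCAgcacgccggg
The motif of ATF3 is at chr1:212565216-212565223 and that of CEBPG at chr19:33374071-33374078, both reading TGATGNAA on the plus strand. That of CHAC1, at chr15:40953262-40953269, reads TGATGNAA on the minus strand, and TGACGTCA of PPP1R15A is at chr19:48872363-48872370.

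Libraries held between 1666325 and 6596543 counts. Treatments of a line and time share the same 3 DMSO libraries, so that chance values of these libraries enter each of their comparisons. Sample numbers in the column names run from 1 to 22 and recur 3 times, read here as 3 sets of libraries. AMO1 cells treated for 24 h with NCP26, HFG, NCP22 or halofuginol, and 2 of 3 libraries with CFZ at 24 h, belong to another set than their DMSO libraries, as do L363-CFZr cells with HFG or halofuginol at 6 h and 1 of 3 with NCP22 at 6 h. Where all 3 treated libraries belong to another set, the treatment and the set cannot be told apart within the libraries compared. With CFZ at 24 h and NCP22 at 6 h they are confounded in part. Values from a fit to all groups of a line with a term for the set are given beside the results. In each line this term rests on 1 group spread over sets, CFZ at 24 h in AMO1 and NCP22 at 6 h in L363-CFZr cells. In each of these groups 1 library stands against 2, so values with the term are uncertain. By the labels, samples were handled differently before RNA extraction: an overnight freeze at 6 h, and ice at 24 h. Replicate 2 of L363-CFZr with DMSO at 24 h stood apart: the 10 members together reached 1028 CPM (counts scaled to library size, with TMM factors) in it against 1665 and 1642 CPM in the others, with 8.75% of its counts on mitochondrially encoded genes against 7.91% and 8.05%, and comparisons that use it are also given without it. Replicate 1 of AMO1 with NCP26 at 6 h also differed from its group, with 15581 genes detected against 13577 and 13636. It had 5.10% of its counts on mitochondrially encoded genes against 4.05% and 3.98%. The members together reached 2247 CPM in it against 2364 and 2362 CPM, and it was kept. All 8 plasma cell markers examined were detected in every library, and defining T cell, myeloid, stromal and epithelial markers stayed at or below 9.71 CPM. In bulk RNA, fewer responding cells and less RNA per cell cannot be told apart.

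NCP26 and HFG raised most of the core in both lines. Each treatment was compared with DMSO of the same line and time with the quasi-likelihood test of edgeR, p-values were adjusted by Benjamini and Hochberg's method over all tested genes, a gene was called at an adjusted p under 0.05, and all 10 members passed the filter on low counts in every comparison. In AMO1 cells at 6 h NCP26 raised 8 members and lowered 1, with a median log2 fold change of 1.29 over the members and -0.011 over all genes, and 37.3% of all tested genes were called. HFG also raised 8 and lowered 1 at 6 h, with a median of 1.17 and 54.3% of all genes called. At 24 h NCP26 raised 8 and lowered 2 (median 1.65, 60.7% of all genes called), and HFG raised 8 and lowered 1 (median 1.47, 59% called). With so many genes called in the AMO1 comparisons, the number of members called says less than their size and direction. Whether libraries overlap is given per gene below, and the share of all genes without overlap was not counted. With the term for the library set NCP26 raised 8 and lowered 1 at 24 h (27.2% of genes called), as did HFG (33%).

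In L363-CFZr cells NCP26 raised 9 of the 10 members at 6 h, with a median log2 fold change of 2.16 against 0.013 over all genes and 18.8% of genes called. At 24 h it raised 9 with a median of 2.39, where 7.09% of genes were called. HFG raised 9 at 6 h (median 2.09, 54.5% of genes called) and 5 at 24 h (median 1.32, 1.17% called). Without the DMSO library that stood apart, HFG raised 9 at 24 h and 19.5% of all genes were called, and NCP26 again raised 9 with 28.6% called. Without DMSO replicate 3 or any 1 of the HFG libraries, HFG raised 3, with no share of all genes given for these fits. A changed count is not by itself a result about the members. With the term for the library set HFG raised 9 at 6 h (21% called). DDIT4 was called in none of these 4 comparisons, nor in the 24 h ones without that library.

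**Figure D1:**
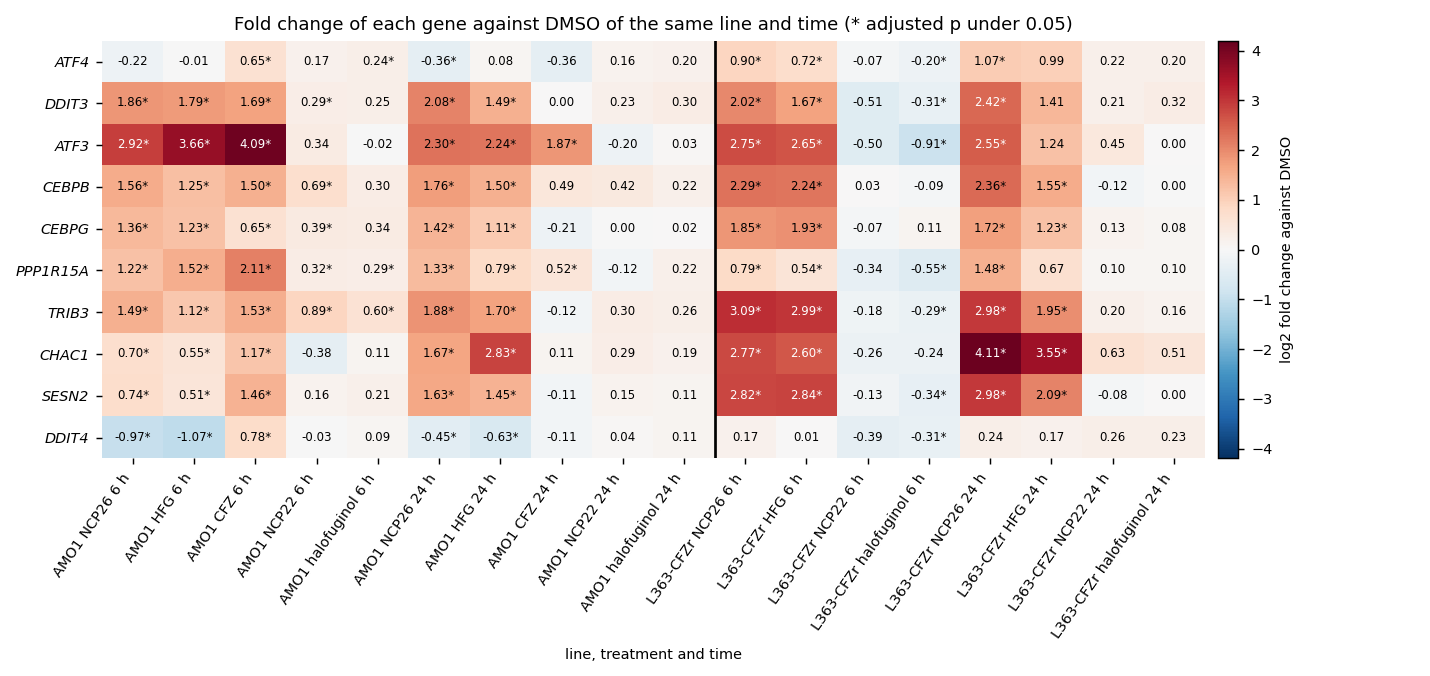
Log2 fold change of each of the 10 genes (rows) against DMSO of the same line and time, for the 18 treatments (columns, AMO1 left of the line and L363-CFZr right of it), with colour and printed number giving the value and an asterisk an adjusted p under 0.05. The columns of NCP26 and HFG are red for all genes but ATF4 and DDIT4 in AMO1 and DDIT4 in L363-CFZr, CFZ is red at 6 h for all 10 genes, and the columns of NCP22 and halofuginol are pale.

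ATF4, the transcription factor at the head of the pathway, differed between the lines. In AMO1 cells at 6 h its level was 507, 511 and 477 CPM with DMSO, 451, 391 and 432 CPM with NCP26 and 479, 515 and 477 CPM with HFG. The NCP26 libraries all lay below the DMSO libraries, but the log2 fold change of -0.22 ± 0.10 (± SE) was not called (adjusted p = 0.111), and the HFG libraries overlapped those with DMSO. At 24 h the DMSO libraries held 672, 732 and 708 CPM, those with NCP26 548, 522 and 552 CPM and those with HFG 706, 757 and 761 CPM. NCP26 lowered ATF4 by a log2 fold change of -0.36 ± 0.043 (adjusted p = 1.3e-08), although with the term for the library set it was -0.30 and not called (adjusted p = 0.106), and HFG gave 0.084 ± 0.044. In L363-CFZr cells at 6 h ATF4 stood at 447, 449 and 476 CPM with DMSO, at 805, 1022 and 738 CPM with NCP26 and at 763, 728 and 742 CPM with HFG. Both compounds lay above DMSO without overlap, with log2 fold changes of 0.90 ± 0.12 and 0.72 ± 0.053. At 24 h the values were 498, 297 and 463 CPM with DMSO, 871, 909 and 863 CPM with NCP26 and 851, 850.4 and 832 CPM with HFG, again without overlap. NCP26 raised it by 1.07 ± 0.20, and HFG gave 0.99 ± 0.19 (adjusted p = 0.0557), which without DMSO replicate 2 was 0.82 and called (adjusted p = 9.31e-12). In the order of group means in L363-CFZr cells the 4 groups with NCP26 or HFG were at the top, clear of the other 6, whose neighbours overlapped. In AMO1 cells halofuginol and NCP22 at 24 h and CFZ at 6 h were the highest and overlapped, while NCP26 at 6 h was the lowest and did not overlap with its neighbour.

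DDIT3, also known as CHOP, a C/EBP family factor induced late in unresolved stress, was raised by both compounds in both lines. In AMO1 cells at 6 h it was 80.2, 78.7 and 74.8 CPM with DMSO, 303, 267 and 271 CPM with NCP26 and 311, 246 and 245 CPM with HFG. After 24 h the levels were 87.4, 81.6 and 78.9 CPM with DMSO, 329.6, 339 and 357 CPM with NCP26 and 252, 221 and 218 CPM with HFG. No treated library overlapped with DMSO, and the log2 fold changes were 1.86 ± 0.10 and 2.08 ± 0.06 for NCP26 and 1.79 ± 0.10 and 1.49 ± 0.075 for HFG at 6 h and 24 h. In L363-CFZr cells it was 31.1, 32.6 and 30.5 CPM with DMSO, 128, 144 and 109.7 CPM with NCP26 and 105, 95.4 and 95.01 CPM with HFG at 6 h. At 24 h they were 20.9, 8.14 and 19.003 CPM, 88.5, 97.9 and 75.04 CPM and 41.5, 45.6 and 44.2 CPM in the same order. The groups were again separate. NCP26 gave 2.02 ± 0.13 at 6 h and 2.42 ± 0.29 at 24 h, HFG gave 1.67 ± 0.094 at 6 h, and at 24 h its 1.41 ± 0.28 was not called (adjusted p = 0.0664) unless DMSO replicate 2, the lowest of all at 8.14 CPM, was left out (1.14, adjusted p = 6.95e-07). NCP26 at 24 h was the highest group in AMO1 cells and NCP26 at 6 h the highest in L363-CFZr cells, each without overlap with the next.

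ATF3, a stress-induced member of the ATF/CREB family, had the largest fold changes of the 10 members with NCP26, HFG and CFZ in AMO1 cells at 6 h. It stood at 16.5, 15.1 and 12.5 CPM with DMSO, 94.7, 112 and 125 CPM with NCP26, 183, 193 and 177 CPM with HFG and 259, 240.0 and 254 CPM with CFZ. The 4 groups did not overlap with each other, and the fold changes against DMSO were 7.56-fold, 12.6-fold and 17.02-fold (log2 2.92 ± 0.15, 3.66 ± 0.11 and 4.09 ± 0.11). At 24 h the levels were 18.7, 20.5 and 17.7 CPM with DMSO, 93.1, 92.2 and 90.8 CPM with NCP26, 82.8, 96.5 and 86.7 CPM with HFG and 74.7, 62.3 and 68.4 CPM with CFZ. All 3 treatments were above DMSO, with log2 fold changes of 2.30 ± 0.10, 2.24 ± 0.11 and 1.87 ± 0.13, and NCP26 and HFG overlapped. In L363-CFZr cells ATF3 was 5.57, 6.45 and 5.59 CPM with DMSO, 40.6, 36.4 and 41.3 CPM with NCP26 and 36.9, 34.5 and 36.5 CPM with HFG at 6 h. Those after 24 h were 4.91, 3.89 and 7.07 CPM with DMSO, 29.2, 35.6 and 30.3 CPM with NCP26 and 16.03, 13.7 and 8.85 CPM with HFG. The log2 fold changes were 2.75 ± 0.16 and 2.65 ± 0.16 at 6 h and 2.55 ± 0.22 for NCP26 at 24 h, and that of HFG at 24 h, 1.24 ± 0.31, was not called with all libraries (adjusted p = 0.121) but was without DMSO replicate 2 (1.10, adjusted p = 0.00576).

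CEBPB and CEBPG encode C/EBP factors that can pair with ATF4. CEBPB in AMO1 cells was 23.1, 27.1 and 25.3 CPM with DMSO, 78.9, 77.6 and 64.9 CPM with NCP26 and 58.3, 59.2 and 59.4 CPM with HFG at 6 h. At 24 h it was 21.7, 22.9 and 28.6 CPM, 80.2, 86.1 and 84.5 CPM and 71.7, 72.1 and 66.9 CPM in that order. Treated and DMSO libraries were separate at both times, with log2 fold changes of 1.56 ± 0.13 and 1.76 ± 0.10 for NCP26 and 1.25 ± 0.11 and 1.503 ± 0.11 for HFG. In L363-CFZr cells CEBPB rose from 16.7, 14.6 and 15.04 CPM with DMSO to 65.2, 91.7 and 70.5 CPM with NCP26 and 71.4, 70.9 and 73.5 CPM with HFG at 6 h. At 24 h it was 18.6, 10.3 and 15.6 CPM with DMSO, 82.3, 73.8 and 75.7 CPM with NCP26 and 45.5, 36.7 and 51.4 CPM with HFG. The log2 fold changes were 2.29 ± 0.16, 2.24 ± 0.11, 2.36 ± 0.20 and 1.55 ± 0.22 in this order, all called, and HFG at 24 h was separate from the 3 other treated groups above it.

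CEBPG, which lacks an activation domain of its own, rose in the same 8 comparisons as CEBPB. In AMO1 cells it was 74.3, 63.3 and 68.1 CPM with DMSO, 170.1, 195 and 159 CPM with NCP26 and 173, 149.6 and 155 CPM with HFG at 6 h, and at 24 h 79.7, 80.6 and 86.1 CPM, 222, 227 and 205 CPM and 177, 184 and 171 CPM. Every treated library exceeded every DMSO library. The log2 fold changes of NCP26 were 1.36 ± 0.11 and 1.42 ± 0.065 and those of HFG 1.23 ± 0.091 and 1.11 ± 0.068. In L363-CFZr cells the 6 h levels were 41.9, 49.5 and 47.7 CPM with DMSO, 159.9, 171 and 172 CPM with NCP26 and 177, 179 and 170.2 CPM with HFG. Those at 24 h were 52.7, 34.3 and 45.1 CPM, 148, 144 and 146 CPM and 98.1, 102 and 115 CPM. All 4 comparisons were called, with 1.85 ± 0.11 and 1.72 ± 0.16 for NCP26 and 1.93 ± 0.081 and 1.23 ± 0.16 for HFG.

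PPP1R15A, also known as GADD34, directs a phosphatase to eIF2 and so ends the response. In AMO1 cells it was 139, 149 and 118 CPM with DMSO, 259, 324 and 357 CPM with NCP26 and 394, 392 and 369 CPM with HFG at 6 h. At 24 h DMSO alone stood higher, at 229.9, 257 and 214 CPM, with 581, 575 and 582 CPM for NCP26 and 409, 412 and 386 CPM for HFG. The groups did not overlap at either time, and the log2 fold changes were 1.22 ± 0.13 and 1.33 ± 0.052 with NCP26 and 1.52 ± 0.086 and 0.79 ± 0.064 with HFG. L363-CFZr cells held 61.2, 64.8 and 70.7 CPM with DMSO, 121, 108 and 113 CPM with NCP26 and 98.1, 93.1 and 93.1 CPM with HFG at 6 h with log2 fold changes of 0.79 ± 0.11 and 0.54 ± 0.082. At 24 h the levels were 36.6, 30.4 and 34.1 CPM, 91.96, 97.4 and 94.04 CPM and 57.2, 54.9 and 51.1 CPM. NCP26 raised it by 1.48 ± 0.12, and the 0.67 ± 0.12 of HFG was not called (adjusted p = 0.0551) but was without DMSO replicate 2 (0.63, adjusted p = 0.000166).

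TRIB3, a pseudokinase that binds ATF4 and restrains it, was raised by NCP26 and HFG at both times in both lines. AMO1 cells held 114, 101 and 116 CPM with DMSO, 312, 305 and 304 CPM with NCP26 and 243, 237 and 231 CPM with HFG at 6 h, and 95.5, 103 and 109 CPM, 362, 378 and 391 CPM and 324, 354 and 323 CPM at 24 h. The NCP26 libraries lay above those with HFG, and these above DMSO, without overlap at either time. On the log2 scale the changes were 1.49 ± 0.10 and 1.88 ± 0.057 with NCP26 and 1.12 ± 0.08 and 1.703 ± 0.066 with HFG. L363-CFZr cells held 72.05, 69.6 and 74.6 CPM with DMSO, 583, 701 and 557 CPM with NCP26 and 599, 545 and 551 CPM with HFG at 6 h. At 24 h these were 76.5, 58.7 and 67.7 CPM, 537, 556 and 511 CPM and 255.4, 267 and 274 CPM. NCP26 gave 3.09 ± 0.12 and 2.98 ± 0.15, an 8.49-fold and a 7.88-fold rise, and HFG gave 2.99 ± 0.068 and 1.95 ± 0.12.

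CHAC1, an enzyme that degrades glutathione, reached its largest fold changes in L363-CFZr cells. AMO1 cells held 14.2, 11.6 and 11.05 CPM with DMSO, 18.6, 20.3 and 20.5 CPM with NCP26 and 19.05, 18.5 and 16.8 CPM with HFG at 6 h. At 24 h the levels were 5.51, 5.42 and 6.44 CPM, 14.2, 17.02 and 23.97 CPM and 38.3, 49.7 and 36.9 CPM. All treated libraries were above DMSO, and at 24 h those with HFG were above those with NCP26. The log2 fold changes were 0.70 ± 0.18 and 1.67 ± 0.22 with NCP26 and 0.55 ± 0.17 and 2.83 ± 0.18 with HFG. L363-CFZr cells held 8.84, 4.07 and 7.52 CPM with DMSO, 42.4, 53.96 and 45.8 CPM with NCP26 and 41.8, 43.4 and 40.2 CPM with HFG at 6 h. At 24 h DMSO gave 2.70, 2.83 and 1.95 CPM, NCP26 44.1, 46.6 and 38.3 CPM and HFG 27.8, 32.6 and 28.2 CPM. The groups were widely separated, with 2.77 ± 0.21 and 4.11 ± 0.21 for NCP26, a 17.3-fold rise at 24 h, and 2.60 ± 0.17 and 3.55 ± 0.21 for HFG.

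SESN2, a leucine sensor that restrains mTORC1, rose with NCP26 and HFG throughout. In AMO1 cells at 6 h it was 125, 122 and 105 CPM with DMSO, 178, 205 and 202 CPM with NCP26 and 154, 178 and 162 CPM with HFG. Its 24 h values were 76.4, 77.5 and 70.4 CPM, 212, 227 and 244 CPM and 189, 193 and 225 CPM. No treated library overlapped with DMSO. The log2 fold changes were 0.74 ± 0.10 and 1.63 ± 0.068 with NCP26 and 0.51 ± 0.087 and 1.45 ± 0.077 with HFG. In L363-CFZr cells the 6 h levels were 36.7, 29.2 and 36.5 CPM with DMSO, 249, 226 and 251 CPM with NCP26 and 255.5, 236 and 236 CPM with HFG. The 24 h levels were 27.97, 31.5 and 25.6 CPM, 231, 229 and 213 CPM and 115, 128 and 124 CPM, and HFG lay between the others without overlap. At 6 h and then 24 h, NCP26 and HFG gave 2.82 ± 0.12, 2.84 ± 0.086, 2.98 ± 0.15 and 2.09 ± 0.14.

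DDIT4, also known as REDD1 and likewise a restraint on mTORC1, went the other way in AMO1 cells. It fell from 855, 851 and 813 CPM with DMSO to 382, 467 and 425 CPM with NCP26 and 399, 392 and 394 CPM with HFG at 6 h. At 24 h it was 863, 929 and 852 CPM with DMSO, 607, 662 and 649 CPM with NCP26 and 511, 591 and 591 CPM with HFG. Every treated library lay below every DMSO library, with log2 fold changes of -0.97 ± 0.10 and -0.45 ± 0.043 for NCP26 and -1.07 ± 0.059 and -0.63 ± 0.052 for HFG. With the term for the library set the 24 h values were -0.41 (edgeR adjusted p = 0.0363) and -0.56 (adjusted p = 0.00483). In L363-CFZr cells DDIT4 was 746, 720.4 and 747 CPM with DMSO, 867, 893 and 738 CPM with NCP26 and 709, 775 and 717 CPM with HFG at 6 h. The 24 h libraries held 926, 551 and 963 CPM, 973, 973 and 929 CPM and 939, 941 and 901 CPM. Treated and DMSO libraries overlapped at both times. The 95% intervals of the log2 fold change were -0.059 to 0.40 for NCP26 and -0.10 to 0.12 for HFG at 6 h, and -0.25 to 0.73 and -0.29 to 0.64 at 24 h. With an offset for the GC content of genes DDIT4 was called as higher at 6 h with both NCP26 and HFG, at 0.33 for HFG, outside the interval above.

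**Figure D2:**
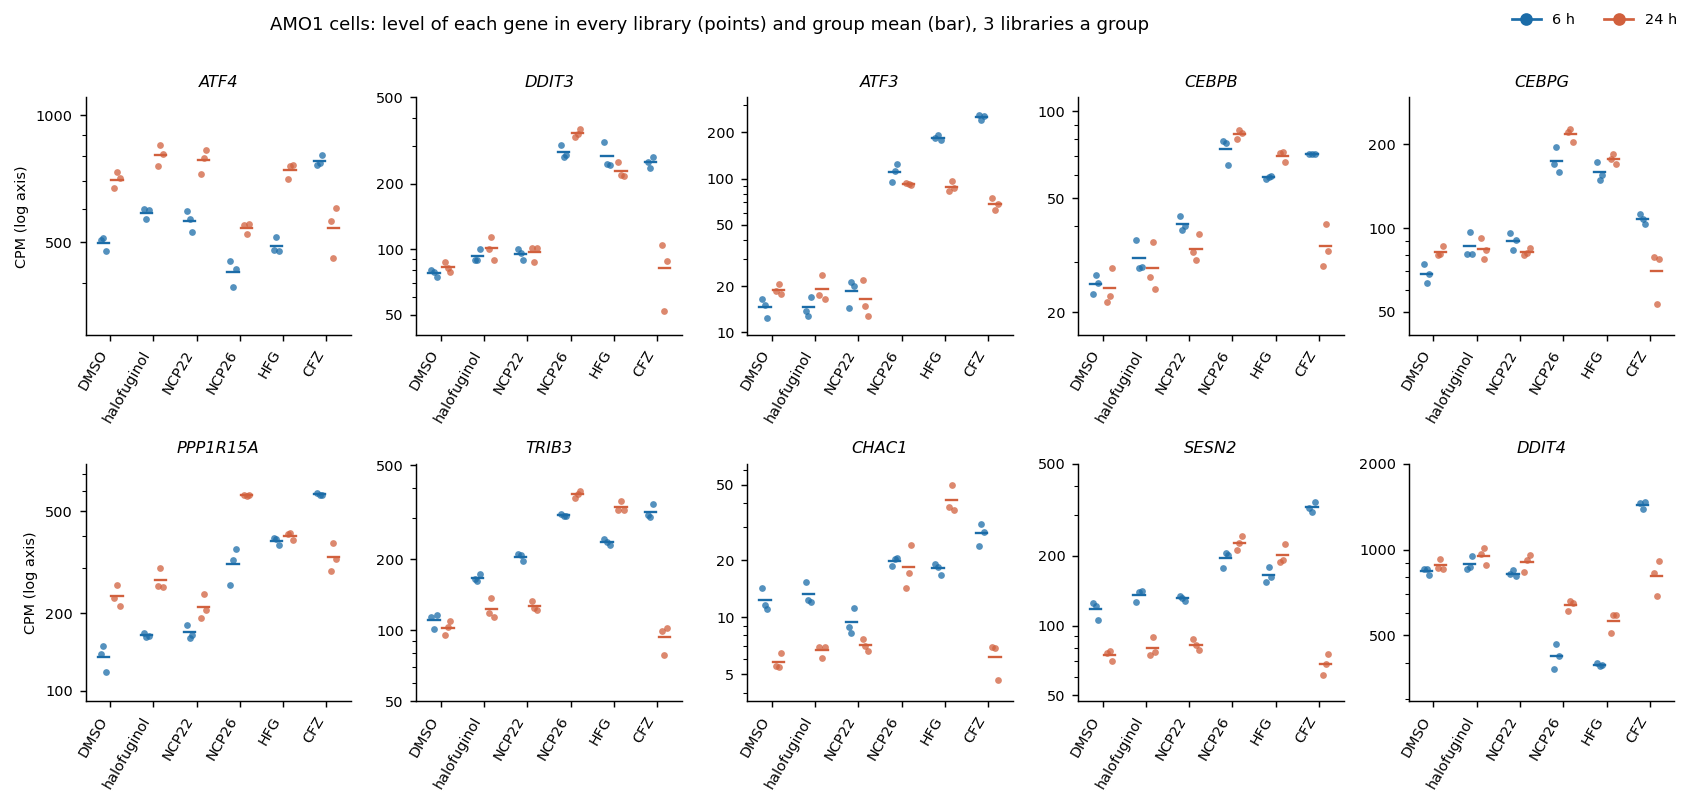
Level of each of the 10 genes in every AMO1 library, in CPM on a log axis, by treatment and time, with points for single libraries and bars for the mean of 3. DDIT3, ATF3, CEBPB, CEBPG, PPP1R15A, TRIB3, CHAC1 and SESN2 stand above DMSO with NCP26 and HFG at both times, DDIT4 stands below it, and CFZ is above DMSO for all 10 genes at 6 h.

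**Figure D3:**
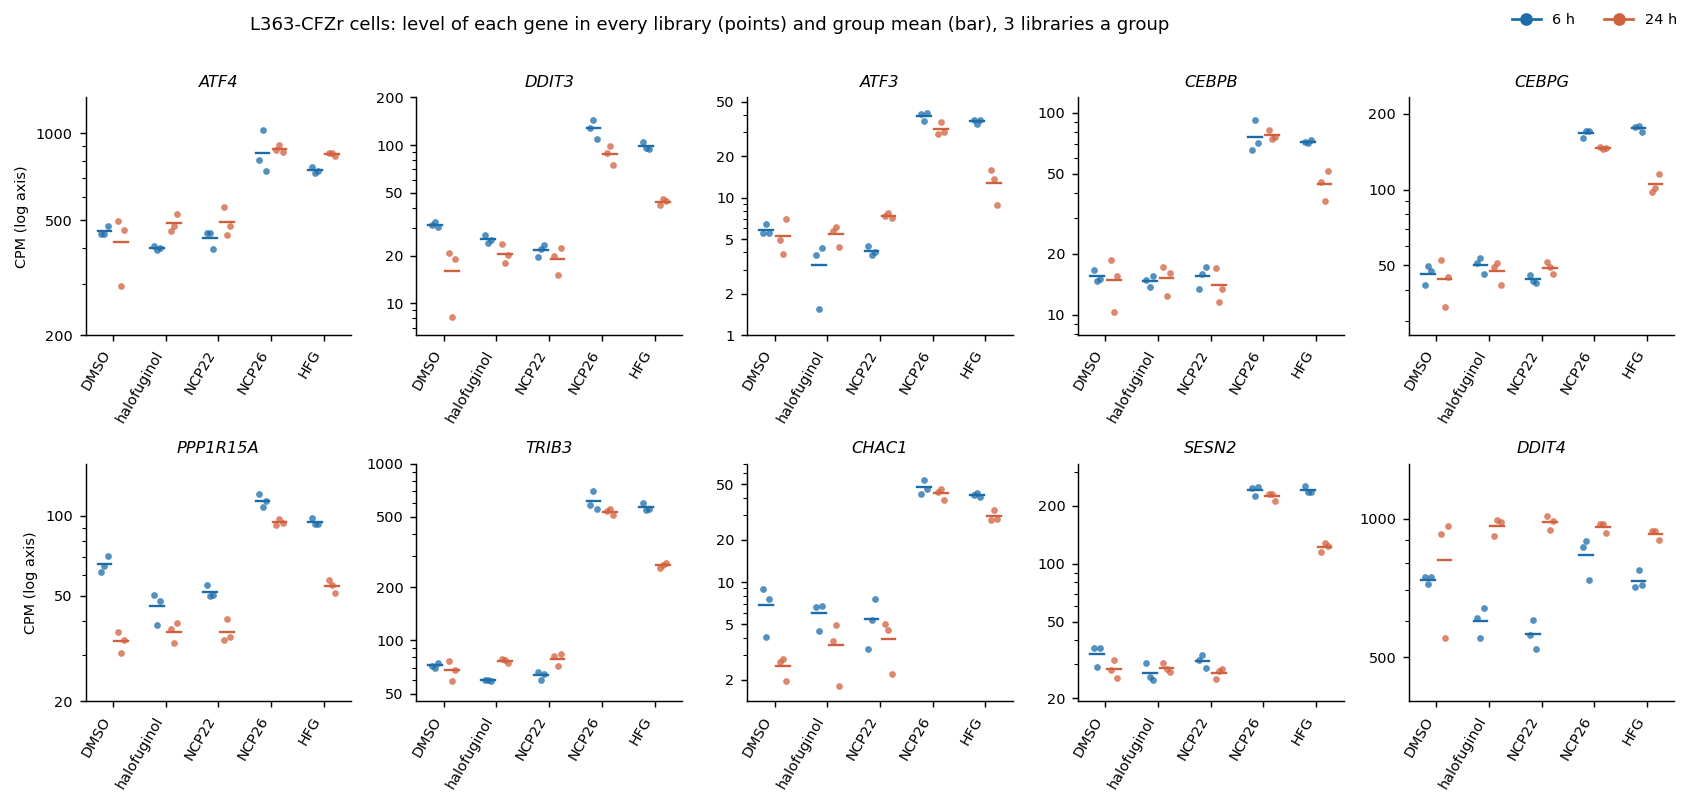
Level of each of the 10 genes in every L363-CFZr library, in CPM on a log axis, by treatment and time, with points for single libraries and bars for the mean of 3. With NCP26 and HFG all genes but DDIT4 lie above DMSO of the same time without overlap. Such separation was not counted over all genes. Replicate 2 of DMSO at 24 h is the lowest point of its group for 8 of the genes, CHAC1 and SESN2 being the exceptions.

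Carfilzomib raised the whole core in AMO1 cells at 6 h, and little of it at 24 h. At 6 h all 10 members rose, with a median log2 fold change of 1.48 and 26.9% of all genes called. ATF4 reached 762, 772 and 806 CPM, a log2 fold change of 0.65 ± 0.058, and DDIT4 reached 1453, 1389.6 and 1471 CPM (0.78 ± 0.053). These are the members that did not rise with NCP26 or HFG in this line, but the dose of CFZ was another than that of these compounds and the treatments were not tested against each other. PPP1R15A stood at 591, 582 and 579 CPM (2.11 ± 0.077) and SESN2 at 321, 308 and 341 CPM (1.46 ± 0.077). CEBPB stood at 70.96, 70.9 and 71.2 CPM, and DDIT3, TRIB3, CHAC1 and CEBPG rose by 1.69, 1.53, 1.17 and 0.65 on the log2 scale. At 24 h 2 members were called, ATF3 and PPP1R15A, both higher, where 27% of all genes were called and the median of the members was -0.052. PPP1R15A was 292, 376 and 326 CPM (0.52 ± 0.14). DDIT3 ranged from 52.2 to 104 CPM over the 3 CFZ libraries, around the DMSO libraries, with replicate 2 the lowest, and 4 members were called without that library. Without any 1 of the DMSO libraries 1 member was called. No share of all genes is given for these counts with 1 library left out. With the term for the set 1 member was higher and 1 lower (31.1% of genes called).

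With NCP22 and halofuginol the calls among the members lay at 6 h. In AMO1 cells at 6 h NCP22 raised 5 members, where 13.5% of all genes were called, and the median was 0.30. TRIB3 reached 211, 209 and 196 CPM (0.89 ± 0.079) and CEBPB 43.2, 38.9 and 39.9 CPM (0.69 ± 0.12), while CEBPG, PPP1R15A and DDIT3 rose by 0.39, 0.32 and 0.29 on the log2 scale. Without replicate 2 of DMSO 3 members were called with NCP22, and without replicate 1 of NCP22 2. For these and the counts that follow with 1 library left out, no share of all genes is given. Halofuginol raised 3 at 6 h (3.62% of all genes called), TRIB3 by 0.60 ± 0.076, PPP1R15A by 0.29 ± 0.079 and ATF4 by 0.24 ± 0.057, and 1 member was called without replicate 2 of DMSO or any 1 halofuginol library. At 24 h neither compound gave a call among the members by edgeR. With NCP22 0% of all genes were called, with 638 genes and 4 members at an unadjusted p under 0.05 and 0 members called by DESeq2, and 1 member was called by edgeR without replicate 1 of NCP22. With halofuginol 0.183% of all genes were called, with 1129 genes and 4 members at an unadjusted p under 0.05 and 1 member called by DESeq2.

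In L363-CFZr cells NCP22 gave no call among the members at 6 h (0% of genes called, 666 genes and 3 members at an unadjusted p under 0.05, 1 member by DESeq2) or at 24 h (0%, 213 genes, 0 members, 0 by DESeq2). Halofuginol at 24 h gave none either (0%, 410 genes, 0 members, 0 by DESeq2). Without the DMSO library that stood apart both compounds again gave 0 members and 0% of genes called at 24 h. At 6 h halofuginol lowered 7 members, where 25.8% of all genes were called, with a median of -0.30. PPP1R15A was 50.4, 38.8 and 47.6 CPM (-0.55 ± 0.10) and ATF3 3.82, 1.55 and 4.30 CPM (-0.91 ± 0.32), all below DMSO, and 4 members were called without replicate 2 of halofuginol or replicate 1 or 3 of DMSO. These DMSO libraries belong to another set, and no share of all genes is given for the 4 called with 1 library left out. With the term for the set 0 members and 0.989% of genes were called, and with an offset for the GC content of genes 0 members and 1.59%, with edgeR adjusted p-values for PPP1R15A of 0.138 and 0.0652. The median of the members was -0.32 with the term, close to that without it, and -0.10 with the offset. PPP1R15A was -0.49 ± 0.17 with the term, where the standard error was larger, and -0.34 ± 0.094 with the offset.

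The related compounds were set against each other at 1 µM and the same time in 3 pairs, each in 4 combinations of line and time, 12 comparisons in all. NCP26 exceeded NCP22 for 8 members and was below it for ATF4 and DDIT4 in AMO1 cells at 6 h (24.7% of all genes called) and at 24 h (52%). In L363-CFZr cells NCP26 was above NCP22 for all 10 at 6 h (20.4%) and for 9 at 24 h (34.1%), with DDIT4 at -0.028 ± 0.071. The median differences were 0.92 and 1.46 in AMO1 and 2.39 and 2.15 in L363-CFZr cells. HFG against its reduced analogue halofuginol gave 8 higher and 2 lower at 6 h (51.7% of all genes called) and 8 higher and 1 lower at 24 h (56.6%) in AMO1 cells. In L363-CFZr cells it gave 10 higher at 6 h (47.3%) and 9 higher at 24 h (21.9%). ATF3 showed the widest gap between HFG and halofuginol at 6 h in both lines, 3.68 ± 0.10 in AMO1 and 3.57 ± 0.18 in L363-CFZr cells.

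NCP26 against HFG gave few calls at 6 h and more at 24 h, among the members and among all genes. Whether the difference between the compounds changed with time was not tested. Its median over the members was 0.14 at 6 h and 0.18 at 24 h in AMO1 cells, and 0.13 and 0.81 in L363-CFZr cells. The AMO1 libraries at 6 h include replicate 1 of NCP26, which differed from its group. In AMO1 cells at 6 h 1 member was called, where 0.26% of all genes were. This was ATF3, with a log2 difference of -0.72 ± 0.10, with the call lost when replicate 2 of NCP26 or any 1 of the HFG libraries was left out. For the other 9, which did not pass after adjustment, the unadjusted 95% intervals do not show that the compounds act alike: that of TRIB3 was 0.21 to 0.57, that of PPP1R15A -0.53 to -0.03 and that of DDIT3 -0.16 to 0.34. In L363-CFZr cells at 6 h 0 members and 0% of genes were called, with 1188 genes and 2 members at an unadjusted p under 0.05 and 0 members called by DESeq2. The intervals there were -0.14 to 0.34 for TRIB3, 0.10 to 0.60 for DDIT3 and -0.22 to 0.17 for SESN2, and these libraries come from different sets. At 24 h in AMO1 cells 6 members were higher and 2 lower with NCP26 (44.9% of all genes called). DDIT3 was higher by 0.57 ± 0.062 and PPP1R15A by 0.53 ± 0.044, whereas CHAC1 and ATF4 were lower, with differences of -1.17 ± 0.17 and -0.46 ± 0.041. In L363-CFZr cells at 24 h 8 members were higher with NCP26 and none lower (12.9%). ATF3 was higher by 1.32 ± 0.18, TRIB3 by 1.03 ± 0.057, DDIT3 by 1.01 ± 0.10 and CHAC1 by 0.56 ± 0.12. ATF4 and DDIT4 were not called, with intervals of -0.023 to 0.18 and -0.038 to 0.17.

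**Figure D4:**
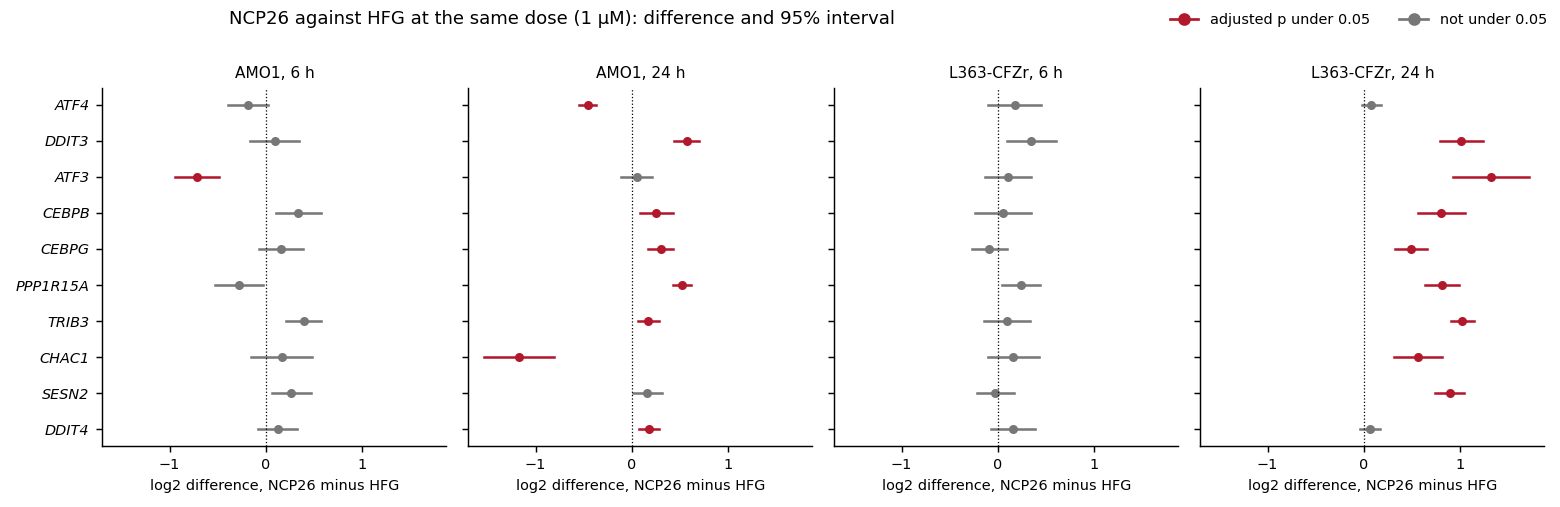
Log2 difference between NCP26 and HFG for each of the 10 genes, with 95% intervals, in the 4 combinations of line and time. At 6 h ATF3 in AMO1 cells is the one gene with an adjusted p under 0.05, while at 24 h in L363-CFZr cells 8 genes lie to the side of NCP26 and in AMO1 cells CHAC1 lies to the side of HFG.

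The change of each treatment against DMSO was compared between 24 h and 6 h by an interaction term. With NCP26 in AMO1 cells 5 members differed (17.5% of all genes called). The log2 fold change was larger at 24 h for CHAC1 by 0.96 ± 0.29, for SESN2 by 0.87 ± 0.12 and for TRIB3 by 0.39 ± 0.11. It was smaller for ATF3, with a difference of -0.63 ± 0.18. DDIT4 fell at both times with NCP26 and with HFG, so its positive difference, 0.52 ± 0.11 with NCP26, is a smaller fall at 24 h. Mean CHAC1 with NCP26 was 19.8 CPM at 6 h and 18.4 CPM at 24 h, against 12.3 and 5.79 CPM with DMSO. SESN2 and TRIB3 stood higher with NCP26 at 24 h (228 and 377 CPM) than at 6 h (195 and 307 CPM). With DMSO mean SESN2 was 117 CPM at 6 h and 74.8 CPM at 24 h, and mean TRIB3 110 and 103 CPM. Mean SESN2 with HFG was 165 CPM at 6 h and 202 CPM at 24 h. The larger SESN2 changes at 24 h therefore went with a lower DMSO level as well as higher treated levels. With HFG 6 differed (39.6%), with differences of 2.31 ± 0.25 for CHAC1, 0.98 ± 0.12 for SESN2, 0.62 ± 0.10 for TRIB3, 0.47 ± 0.08 for DDIT4, -1.39 ± 0.16 for ATF3 and -0.70 ± 0.11 for PPP1R15A. Mean PPP1R15A with HFG was 385 CPM at 6 h and 402 CPM at 24 h, with overlapping libraries. With DMSO it was 135 and 234 CPM, so its smaller fold change at 24 h went with the higher DMSO level. With the term for the library set 3 members differed with NCP26 (8.3% of genes called), SESN2 and DDIT3 with a larger rise at 24 h and DDIT4 with a smaller fall. DDIT3 was not among the 5 and was called here (0.77, edgeR adjusted p = 0.0482), whereas CHAC1, TRIB3 and ATF3 were not called. The term rests on the CFZ libraries at 24 h. There DDIT3 was 104 CPM in replicate 1, of the DMSO set, and 52.2 and 88.2 CPM in replicates 2 and 3, so this call is uncertain. The same 6 differed with HFG (25.7%), and 3 members differed with NCP26 without replicate 1 or 2 of DMSO or replicate 3 of NCP26 at 24 h. With CFZ all 10 were smaller at 24 h (19.6%), from -0.88 for CEBPG to -2.23 for ATF3. Under the term for the set 9 were smaller (19.6%), and CHAC1, at -0.90, was not called (adjusted p = 0.0877). In L363-CFZr cells NCP26 gave 1 member that differed (0.691%), PPP1R15A, by 0.70 ± 0.14, and 0 when any 1 library other than DMSO replicate 2 at 24 h was left out. Without that replicate it was again PPP1R15A (3.64%). With the term for the set PPP1R15A and CHAC1 differed, both with a larger log2 fold change at 24 h (5.93%). Mean PPP1R15A with NCP26 was 114 CPM at 6 h and 94.5 CPM at 24 h, against 65.6 and 33.7 CPM with DMSO. Mean CHAC1 with NCP26 was 47.4 and 43.002 CPM, with overlapping libraries, against 6.81 and 2.49 CPM with DMSO. Neither mean rose with NCP26 between the times, and both were lower with DMSO at 24 h. CHAC1 with DMSO at 24 h rested on 8 to 11 counts per library. HFG gave 4 (12.3%), all smaller at 24 h, with differences of -1.39 ± 0.33 for ATF3, -1.02 ± 0.14 for TRIB3, -0.73 ± 0.16 for SESN2 and -0.69 ± 0.18 for CEBPG. Without DMSO replicate 2 at 24 h HFG gave 7 (32.9%), 6 smaller and 1 larger, CHAC1, at 1.08 (adjusted p = 0.024). Under the term for the set it gave 4 (10.4%), TRIB3, SESN2 and CEBPG smaller and CHAC1 larger at 1.77 (adjusted p = 0.0475), while ATF3 was not called (adjusted p = 0.0994). Mean CHAC1 with HFG was 41.8 CPM at 6 h and 29.5 CPM at 24 h, so its larger fold change also went with the lower DMSO level. HFG gave 1 without replicate 1 of HFG at 6 h and 2 without replicate 3 of HFG or replicate 1 or 3 of DMSO at 6 h. Except without DMSO replicate 2 at 24 h, no share of all genes is given for the counts with 1 library left out. The handling of samples before extraction also differed between the times, and its part was not tested.

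With DMSO alone the core was lower in L363-CFZr than in AMO1 cells. At 6 h 9 members were lower and none higher (60.2% of all genes called), and at 24 h likewise 9 and none (39.9%). PPP1R15A at 24 h was 227, 257 and 215 CPM in AMO1 and 36.7, 30.2 and 34.2 CPM in L363-CFZr cells, on a scale common to all libraries, a log2 difference of -2.76 ± 0.13. SESN2 at 6 h was 126, 119 and 104 CPM and 36.9, 29.5 and 36.8 CPM (-1.79 ± 0.11). The lines did not overlap for these genes. ATF4 did not pass the test at 6 h (-0.14 ± 0.064), nor DDIT4 at 24 h (-0.092 ± 0.20). The lines belong to different sets of libraries, and with the term for the set 6 members were lower at 6 h (36.7% of genes called) and 6 at 24 h (21.7%). Without replicate 2 of L363-CFZr with DMSO 9 were lower at 24 h (65%).

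The log2 fold change with NCP26 was larger in L363-CFZr cells for some members. By the interaction of treatment and line, 5 members differed at 6 h, all larger in L363-CFZr (2.71% of all genes called): CHAC1 by 2.06 ± 0.29, SESN2 by 2.05 ± 0.15, TRIB3 by 1.58 ± 0.15, DDIT4 by 1.13 ± 0.14 and ATF4 by 1.10 ± 0.16. For DDIT4 this set a fall in AMO1 against a value near 0 in L363-CFZr cells. At 24 h 4 differed (5.41%): CHAC1, ATF4, SESN2 and TRIB3. Without replicate 2 of L363-CFZr with DMSO 5 differed (21.1%), the fifth being DDIT4, at 0.45 (adjusted p = 0.000138). On the common scale mean SESN2 with NCP26 at 24 h was 232 CPM in AMO1 and 227 CPM in L363-CFZr cells. With DMSO it was 74.5 and 28.3 CPM, so the lines differed in the DMSO level and little in the level reached. Mean CHAC1, TRIB3 and ATF4 with NCP26 at 24 h were 18.7, 384 and 550 CPM in AMO1 and 43.4, 540 and 890 CPM in L363-CFZr cells. ATF3 and DDIT3 were not called at 6 h, with intervals of -0.70 to 0.32 and -0.20 to 0.48. With HFG 7 members were larger and 2 smaller in L363-CFZr cells at 6 h (20.7%), where SESN2 differed by 2.34 ± 0.13 and ATF3 and PPP1R15A by -1.01 ± 0.21 and -0.97 ± 0.11. At 24 h 3 were larger (ATF4, DDIT4 and SESN2) and 1 smaller (ATF3), with 16.9% of all genes called, and 2 members in all differed without replicate 2 of HFG in L363-CFZr or without replicate 2 of DMSO or 1 of HFG in AMO1 cells. Without replicate 2 of L363-CFZr with DMSO the counts with HFG at 24 h were again 3 and 1 (33.4%). Shares of all genes for the other counts with 1 library left out are not given. Mean SESN2 with HFG at 24 h was 203 CPM in AMO1 and 122 CPM in L363-CFZr cells on the common scale. Under the term for the set 7 members were larger and 1, PPP1R15A, smaller with NCP26 at 6 h (6.98% of genes called), and 5 larger and 1 smaller with HFG (7.51%). At 24 h with this term 4 were larger with NCP26 (5.03%), and 3 larger and 1 smaller with HFG (14.1%).

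**Figure D5:**
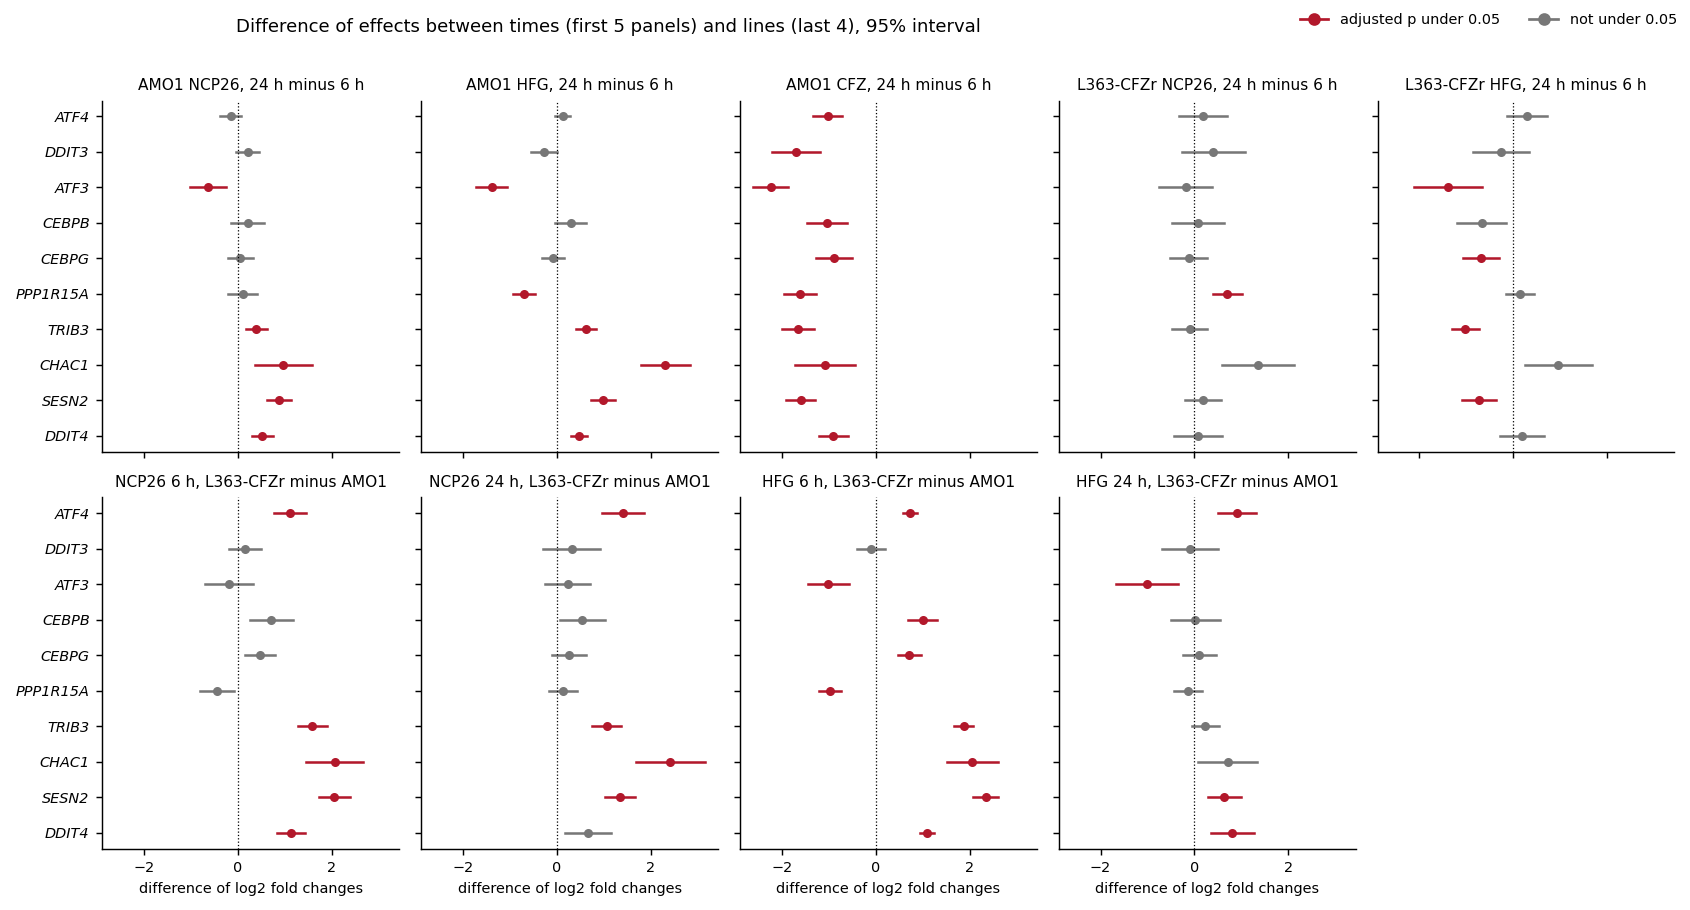
Differences between log2 fold changes for each of the 10 genes, between 24 h and 6 h and between L363-CFZr and AMO1 cells, with 95% intervals. All 10 genes lie below 0 for CFZ at 24 h against 6 h, and CHAC1, SESN2, TRIB3 and ATF4 lie above 0 for NCP26 in L363-CFZr against AMO1 cells.

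Other genes of the pathway were described from 3 lists, with no test of a list. Of 28 other target genes of the ISR, 26 were tested in AMO1 cells. They include genes for amino acid supply and others such as HERPUD1, TNFRSF10B and VEGFA. The list was written from general knowledge with earlier results of these data known. The shares of all tested genes called in these comparisons were those given above with the members, 37.3% and 60.7% for NCP26 and 54.3% and 59% for HFG in AMO1 cells at 6 h and 24 h, and 18.8%, 7.09%, 54.5% and 1.17% in L363-CFZr cells. NCP26 raised 20 and lowered 1 at 6 h (median log2 fold change 0.78 against -0.011 over all genes), and raised 23 and lowered 2 at 24 h (0.99). HFG raised 20 and lowered 2 at 6 h and raised 21 and lowered 1 at 24 h. In L363-CFZr cells NCP26 raised 25 of 26 and lowered 1 at 6 h and raised 23 at 24 h, and HFG raised 24 of 25 and lowered 1 at 6 h and raised 17 at 24 h. SLC7A11, the cystine transporter, rose by 2.30 ± 0.17 with NCP26 in AMO1 cells at 6 h and by 3.67 ± 0.10 with HFG in L363-CFZr cells at 6 h. INHBE, a secreted factor, rose by 3.60 ± 0.15 with NCP26 and by 3.58 ± 0.11 with HFG in L363-CFZr cells at 6 h. CTH, a transsulfuration enzyme, rose by 3.55 ± 0.18 there with HFG. GDF15 summed to 1 count over the 3 DMSO libraries of L363-CFZr cells at 6 h and to 42 with NCP26, so its fitted fold change depends on the prior count. With CFZ in AMO1 cells 21 targets rose and 1 fell at 6 h (26.9% of genes called), but 5 rose and 9 fell at 24 h (27%).

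Of 14 genes upstream of ATF4, the eIF2 kinases, their partners and the subunits of eIF2 and eIF2B, NCP26 raised 3 and lowered 2 in AMO1 cells at 6 h, where 37.3% of all genes were called, and raised 7 and lowered 5 at 24 h, where 60.7% were. In L363-CFZr cells it raised 2 and lowered 1 at 6 h (18.8%), and 0 passed the test at 24 h (7.09%). The shares called at 6 h were near those of all genes in both lines. HFG raised 5 and lowered 3 in AMO1 cells at 6 h (54.3%) and raised 7 and lowered 3 at 24 h (59%). In L363-CFZr cells it raised 5 and lowered 4 at 6 h (54.5%), and 0 passed at 24 h (1.17%). IMPACT, an inhibitor of GCN2 activation, rose by 0.94 ± 0.17 with NCP26 and by 0.98 ± 0.17 with HFG in AMO1 cells at 6 h, and by 0.87 ± 0.13 and 1.00 ± 0.11 in L363-CFZr cells. GCN1, which activates GCN2, fell in all 4 of these comparisons, with log2 fold changes of -0.63 ± 0.12, -0.59 ± 0.088, -0.64 ± 0.15 and -0.65 ± 0.064 in this order. With CFZ in AMO1 cells at 24 h IMPACT and GCN1 were both higher (0.98 ± 0.25 and 0.76 ± 0.24, with 27% of all genes called). EIF2S2, a subunit of eIF2, rose by 0.68 ± 0.10 with NCP26 in AMO1 cells at 6 h. In L363-CFZr cells at 6 h it rose by 1.07 ± 0.12 with NCP26 and 1.05 ± 0.059 with HFG. EIF2AK3, which encodes PERK, rose by 1.05 ± 0.073 with HFG and by 1.04 ± 0.069 with CFZ in AMO1 cells at 6 h. Paralogues of the members were mixed: of 9 tested in AMO1 cells NCP26 raised 3 and lowered 3 at 6 h and raised 3 and lowered 5 at 24 h, against the same shares of all genes. SESN3, a relative of SESN2, rose with NCP26 at 6 h (0.63 ± 0.23) and with HFG at 24 h (1.31 ± 0.17), and ATF5, a relative of ATF4, rose with NCP26 at 24 h (1.26 ± 0.13). SESN1, also a relative of SESN2, fell with NCP26 at 6 h (-0.75 ± 0.10) and with HFG at 24 h (-1.66 ± 0.094). TRIB2, a relative of TRIB3, fell with HFG at 24 h (-2.76 ± 0.18). With CFZ at 24 h SESN1 and TRIB2 fell as well (-1.81 ± 0.11 and -2.73 ± 0.23). Of the 9 paralogues HFG raised 4 and lowered 2 at 24 h in AMO1 cells (59% of all genes called). Of 10 tested in L363-CFZr cells at 6 h, NCP26 raised 2 and lowered 1 (18.8%), and HFG raised 4 and lowered 2 (54.5%).

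The profile of the core over the 22 groups was described by the mean of the members' log2 CPM, centred within each line. Among the 10016 genes with a mean of at least 5 CPM, the 5 outside the core with the highest Pearson correlation to this mean were SLC3A2 (0.966), GARS1 (0.965), RAB39B (0.962), SLC7A11 (0.954) and CARS1 (0.951). In the AMO1 groups alone they ranked 1, 29, 15, 31 and 18 in this order, and in the L363-CFZr groups alone 46, 2, 10, 17 and 37. SLC3A2 and SLC7A11 encode amino acid transporter subunits, and GARS1 and CARS1 aminoacyl-tRNA synthetases. Each member was also set against the mean of the other 9. CEBPB (0.980), TRIB3 (0.965), SESN2 (0.958), DDIT3 (0.946), CEBPG (0.929) and CHAC1 (0.925) followed it closely, ATF3 (0.827) and PPP1R15A (0.810) less so. ATF4 gave 0.596 over all groups and -0.096 in the 12 AMO1 groups and 0.947 in the 10 L363-CFZr groups alone. DDIT4 gave -0.090 over all groups, -0.369 in AMO1 and 0.260 in L363-CFZr cells. The groups share libraries, sets and DMSO controls, so these values are descriptions.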

How the data were processed

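RNA-seq libraries of 22 groups with 3 replicates each were used. Per the labels and the study's methods, the authors pseudoaligned reads with kallisto and deposited whole-number counts per gene for 20167 genes. The submitters' processing notes name hg19 and the methods GRCh38. The count table holds no coordinates, and positions here are from GENCODE v44 on GRCh38, which held 19299 of the genes. Totals ranged from 1666325 to 6596543 counts per library, which limits low genes such as CHAC1. The 10 members and the pathway lists were chosen with earlier results of these data known.

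Counts were filtered (minimum count 10, minimum total count 15), scaled by TMM and tested with edgeR 4.0.16 in R 4.3.3 by the quasi-likelihood test, on the libraries compared alone (12 for interactions), with Benjamini-Hochberg adjustment over all tested genes and calls at 0.05. Standard errors were taken from each gene's log2 fold change and quasi-likelihood F, and 95% intervals use the t distribution with edgeR's degrees of freedom. An exact permutation test of 3 against 3 libraries cannot go below 0.1, so none was used. All members are named. Of each pathway list the text names some of the 3 called genes with the largest log2 fold change per comparison, and the 5 genes most like the members. Alternatives were DESeq2 1.42.0 (size factors, Wald test), one fit to all groups, leaving out the low-count filter, the replicate number as a block, a GC content offset, a term for the library set and leaving out each library. The fits were tested on simulated data. Figures were drawn with matplotlib 3.10.9.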

Additional observations from a re-analysis of the deposited data

Results flagged for a closer look

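The change against DMSO differed between times or between lines for part of the 10 genes, by an interaction term in edgeR at an adjusted p under 0.05. Between 24 h and 6 h, 5 genes differed with NCP26 (17.5% of all genes called), 6 with HFG (39.6%) and all 10 with CFZ (19.6%) in AMO1 cells. In L363-CFZr cells 1 differed with NCP26 (0.691%) and 4 with HFG (12.3%). Between L363-CFZr and AMO1 cells, 5 differed with NCP26 at 6 h (2.71%) and 4 at 24 h (5.41%), and 9 differed with HFG at 6 h (20.7%) and 4 at 24 h (16.9%). Times differ in the handling of samples and both times and lines partly in the library set, whose part cannot be told apart within the libraries compared.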

How the results depend on the processing

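Among the values recomputed under the alternatives named here, no called value changed direction. DESeq2 size factors left all 275 values on their side of the threshold. The replicate numbers did not pair the libraries: same-numbered deviations correlated from -0.361 to 0.332, in 0 of 18 comparisons were all over 0.1, and in 0 did every library correlate best with its own number. With the replicate block 267 of 275 values kept their direction and side of the threshold. Under it 3 members were called for HFG at 24 h in L363-CFZr cells, 1 for NCP22 at 6 h and 0 for the difference between times with NCP26. The members called for other settings were as follows, without the share of all genes called. That share can move with the setting. With HFG at 24 h in L363-CFZr cells it was 1.17% with all libraries and 19.5% without DMSO replicate 2. A changed count, here or above with 1 library left out, is not by itself a result about the members. In AMO1 cells NCP22 at 6 h gave 3 with all groups in one fit, halofuginol at 6 h gave 1 with all groups in one fit and 5 with the GC offset, with or without the block, CFZ at 24 h gave 4 with all groups in one fit, and halofuginol at 24 h gave 1 by DESeq2. NCP26 against HFG gave 2 at 6 h by DESeq2, with no filter and with all groups in one fit, and 5 at 24 h with all groups in one fit. NCP26 at 24 h against 6 h gave 3 by DESeq2 and with the term for the set. In L363-CFZr cells NCP22 at 6 h gave 1 by DESeq2, with no filter and with the GC offset and block. Halofuginol at 6 h gave 4 by DESeq2 and with all groups in one fit, and 0 with the GC offset, with the offset and block, and with the term for the set. HFG at 24 h gave 9 by DESeq2 and with all groups in one fit. NCP26 at 24 h against 6 h gave 2 by DESeq2, with all groups in one fit and with the term for the set, and 0 with no filter and with the GC offset, with or without the block. HFG at 24 h against 6 h gave 2 with the GC offset and block. NCP26 at 6 h between lines gave 8 with all groups in one fit and with the term for the set. The cause was not tested. Leaving out 1 library at a time gave 2 to 5 for NCP22 and 1 to 3 for halofuginol at 6 h, 1 to 4 for CFZ at 24 h, 0 to 1 for NCP22 at 24 h, 0 to 2 for NCP26 against HFG at 6 h and 3 to 5 for NCP26 between times in AMO1 cells. It gave 4 to 5 for halofuginol at 6 h, 3 to 9 for HFG at 24 h, 0 to 1 for NCP26 between times and 1 to 7 for HFG between times in L363-CFZr cells, and 2 to 4 for HFG at 24 h between lines. The values of the main test that changed sign under an alternative lay near 0 and were not called by that main test. ATF4 with HFG at 6 h in AMO1 cells was 0.16 with the GC offset, alone and with the block, and -0.0482 to 0.0163 without 1 library. With CFZ at 24 h DDIT3 was -0.0138 with no filter, -0.0451 with the replicate block, -0.0413 with the GC offset and block and -0.21 to 0.24 without 1 library, and CHAC1 was -0.0288 with the GC offset and -0.0434 with the block too. The 0.24 of DDIT3, without replicate 2 of CFZ, was called. In L363-CFZr cells DDIT4 with HFG was -0.00685 at 6 h with all groups in one fit, 0.33 and called with the GC offset, alone and with the block, and -0.0348 to 0.0389 without 1 library, and -0.0217 to 0.30 at 24 h without 1 library, the lowest without replicate 2 of DMSO.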
